A study of Mus musculus with 8 samples.

Results

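The Toll-like receptors and their co-receptor Cd14 were followed across 8 arrays of mouse bone marrow-derived macrophages. Every probe whose gene symbol was Tlr1 to Tlr9 or Cd14 was taken, which gave 9 probes for 8 of the 10 genes, out of 25697 probes and 18138 gene symbols on the array. Levels of Tlr5 and Tlr9 were not analysed here. Tlr4 had 2 probes, one starting at base 2636 of its transcript and one at base 228, and each other gene had 1. All 9 probes passed the filter on detection, and 6 of them, for 6 genes, were detected on all 8 arrays. These 6 were Tlr1, Tlr2, Tlr4 at base 2636, Tlr6, Tlr7 and Cd14.

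Bone marrow of female mice aged 8 weeks, strain C57bl/6J in the labels, was grown for 7 days with GM-CSF at 10 ng/ml. WT mice and iNOS deficient mice each gave unstimulated cells and M1 macrophages, the latter after 6 h of LPS at 200 ng/ml plus IFN-γ at 10 ng/ml, with 2 arrays in each of the 4 groups. The iNOS-deficient mice are a whole-body line carrying the Nos2tm1Lau allele on a B6.129P2 background, so every cell of the animal lacks the enzyme. Nothing in the labels says whether the 2 arrays of a group came from separate animals or cultures, so p-values measure the spread between these arrays, which may be technical.

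Toll-like receptors are membrane proteins that recognise conserved microbial molecules and signal through cytoplasmic TIR domains. Tlr4 senses LPS together with Md-2, and Cd14 hands LPS to that complex. Tlr2 pairs with Tlr1 or Tlr6 to sense bacterial lipopeptides, whereas Tlr3, Tlr7 and Tlr8 sit in endosomes and are known as sensors of RNA. Most use the adaptor Myd88, Tlr3 uses Trif, and Tlr4 uses both, which lead to NF-κB and to interferon regulatory factors.

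Intensities are given as log2 of the scaled intensity, so a difference of 1 is a doubling, and levels of different probes are not compared with each other. Between 46% and 49.3% of probes were detected per array, and the lowest detected values lay between 2.31 and 2.92. Arrays of one group differed by a median of 0.161 to 0.187 per probe, against 0.344 to 0.822 for arrays of different groups. Nos2, which encodes iNOS, was not detected on any of the 4 unstimulated arrays and was detected on all 4 M1 arrays, at 7.47 and 7.05 in WT M1 and at 7.49 and 7.67 in iNOS-/- M1. That difference between M1 groups was 0.32 (SE 0.32, limma adjusted p = 0.445). The probe starts at base 3546 of the transcript, and whether the deleted part holds that position is not given in the sources used here, so it does not check the genotype, and the genotype of each array is as labelled throughout. All 8 macrophage markers on the list (Csf1r, Cd68, Itgam, Adgre1, Mertk, Fcgr1, Mrc1, Lyz2) were detected on both arrays of every group. Their levels differed between M1 groups: 5 (Csf1r, Cd68, Itgam, Fcgr1 and Mrc1) were lower and 2 (Adgre1 and Mertk) higher in iNOS-/- than in WT M1 macrophages. The median over the 8 was -0.63, against -0.03 over all tested probes. Of those probes 25.3% were lower and 22.9% higher, or 34% and 31.9% among probes with a mean scaled intensity of at least 15. Csf1r, the receptor for M-CSF, had means of 11.43 in WT M1 and 10.14 in iNOS-/- M1 macrophages. The part of these markers in the changes of the receptors was not tested.

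The probe sequences of Tlr1 and Tlr6 are shown because these paralogs moved together and their probes lie at matching places of similar genes. Capitals mark the bases that match when the probes are aligned without gaps, 26 of 36 overlapping bases with a longest shared run of 11.
Tlr1: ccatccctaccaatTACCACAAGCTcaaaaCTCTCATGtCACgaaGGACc
Tlr6: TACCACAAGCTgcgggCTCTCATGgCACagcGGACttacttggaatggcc
The 10 mismatches were counted within the overlap only, and whether either probe also binds the other transcript was not tested. The Tlr2 and Tlr8 probes, for a gene that changed little and a gene that was lowest in iNOS-/- M1 macrophages, are given in lower case throughout.
Tlr2: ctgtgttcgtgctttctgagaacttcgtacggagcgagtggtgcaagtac
Tlr8: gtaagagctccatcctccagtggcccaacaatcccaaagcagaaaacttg

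Promoter sequences of Tlr2 and Tlr6, which encode receptors that pair with each other, are shown because they hold matches to motifs known for NF-κB and interferon regulatory factors. They are the 250 bases before a RefSeq gene start on GRCm38.p6, on the minus strand, and capitals mark motif letters found on either strand. For Tlr2 (chr3:83841609-83841858) the capitals are a pair of overlapping NF-κB matches at -173 and -172, and a further match at -8 runs past the gene start.
Tlr2: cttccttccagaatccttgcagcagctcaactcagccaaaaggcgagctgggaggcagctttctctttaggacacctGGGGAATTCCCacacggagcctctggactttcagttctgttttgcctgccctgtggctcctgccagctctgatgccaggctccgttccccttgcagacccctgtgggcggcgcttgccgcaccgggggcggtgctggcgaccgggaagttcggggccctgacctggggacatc
For Tlr6 (chr5:64959167-64959416) they are a pair of overlapping matches to the ISRE, the motif known for interferon regulatory factors, read on the other strand, at -116 and -110. Tlr6 has a second entry, which holds no ISRE match.
Tlr6: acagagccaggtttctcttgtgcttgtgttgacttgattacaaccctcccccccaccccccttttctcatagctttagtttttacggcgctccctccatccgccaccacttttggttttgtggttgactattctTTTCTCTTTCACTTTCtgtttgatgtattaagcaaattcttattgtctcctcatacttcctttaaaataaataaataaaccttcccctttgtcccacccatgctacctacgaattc
Of 32851 promoters of 300 bases, 3.44% held an ISRE and 8.46% an NF-κB match. The 7 listed genes with an entry were Tlr1, Tlr2, Tlr3, Tlr5, Tlr6, Tlr8 and Tlr9. They include Tlr5 and Tlr9, whose levels were not analysed here. Of these 7 genes, 1 held an ISRE match (Tlr6) and 2 an NF-κB match (Tlr2 and Tlr3). A match is a string of letters, and binding was not measured.

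**Figure D1:**
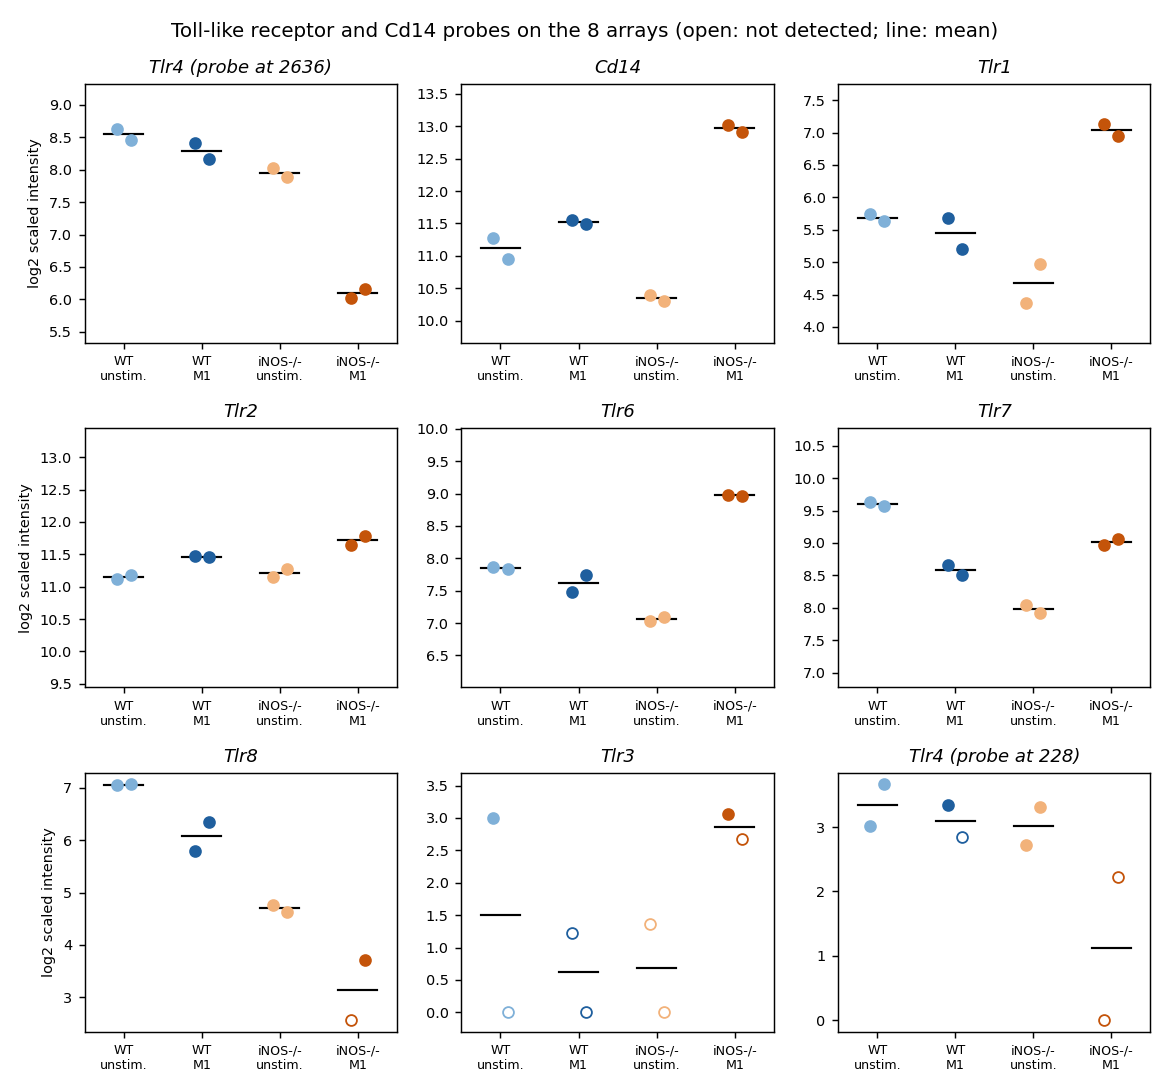
Log2 scaled intensity (vertical axes) of each Toll-like receptor and Cd14 probe on the 8 arrays by group (horizontal axes), with 1 point per array, open where the probe was not detected, and a line at the mean of each group; every axis spans its own range. Cd14, Tlr1 and Tlr6 were highest in both iNOS-/- M1 arrays, and Tlr4 and Tlr8 were lowest there.

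In M1 macrophages, Cd14 and Tlr1, Tlr6 and Tlr7 were higher in iNOS-/- than in WT cells, and Tlr4 and Tlr8 were lower. These were 6 of the 9 probes, 4 higher and 2 lower, while 48.2% of all 13868 tested probes passed the same threshold, 22.9% higher and 25.3% lower. The median over the 8 genes was 0.89 against -0.03 over all probes. Leaving out probes with a mean scaled intensity below 15 and adjusting over the other probes, an alternative added after seeing the data, 65.9% of the 10112 probes left were called, and 6 of the 7 members left. Before activation the picture differed: 6 probes (Tlr1, Tlr4 at base 2636, Tlr6, Tlr7, Tlr8 and Cd14) were lower in iNOS-/- cells and 0 were higher. Of all 13868 tested probes, 15.4% were lower and 16.7% higher there, 32.2% in all. That count fell to 3 without iNOS-/- unstimulated replicate 2.

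Cd14, which hands LPS to Tlr4, rose on activation in iNOS-/- cells and was higher there than in WT M1 macrophages. Its log2 intensity was 11.28 and 10.95 in WT unstimulated cells and 11.55 and 11.49 in WT M1 macrophages. It was 10.40 and 10.30 in iNOS-/- unstimulated cells and 13.02 and 12.92 in iNOS-/- M1 macrophages. The iNOS-/- arrays therefore held both ends of the range, with no overlap between any of the groups. Cd14 was 1.45 higher in iNOS-/- M1 than in WT M1 macrophages (SE 0.13, limma adjusted p = 0.000809), a 2.73-fold difference, and 0.77 lower before activation (SE 0.13, limma adjusted p = 0.0104). Activation raised it by 2.62 in iNOS-/- cells (SE 0.13, limma adjusted p = 0.000101), and the rise of 0.40 in WT cells missed the threshold (SE 0.13, limma adjusted p = 0.0682). The WT value passed it under 6 of 18 alternatives, and the lower level before activation missed it without iNOS-/- unstimulated replicate 2 (limma adjusted p = 0.057).

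Tlr4, the LPS receptor itself, moved the other way. At base 2636 its log2 intensity was 8.64 and 8.45 in WT unstimulated cells and 8.42 and 8.16 in WT M1 macrophages. It was 8.02 and 7.89 in iNOS-/- unstimulated cells and 6.02 and 6.16 in iNOS-/- M1 macrophages. Both iNOS-/- M1 arrays lay far below the other 6. Between M1 groups, iNOS-/- against WT, Tlr4 differed by -2.20 (SE 0.13, limma adjusted p = 0.00029), a level 4.6-fold lower. Activation changed it by -1.87 in iNOS-/- cells (SE 0.13, limma adjusted p = 0.000286), and its change of -0.25 in WT cells did not pass (SE 0.13, limma adjusted p = 0.207). The difference before activation, -0.59 (SE 0.13, limma adjusted p = 0.0254), missed the threshold when any 1 of the 4 unstimulated arrays was left out. The probe at base 228 was close to background, between 2.72 and 3.66 on the other 6 arrays, of which WT M1 replicate 2 was not detected, and not detected on either iNOS-/- M1 array, so that only a bound of at least 1.14-fold lower than WT M1 can be given (limma adjusted p = 0.0822).

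Tlr1 and Tlr6, the partners of Tlr2, had similar profiles. Tlr1 was at 5.74 and 5.63 in WT unstimulated cells, 5.69 and 5.20 in WT M1, 4.38 and 4.97 in iNOS-/- unstimulated and 7.14 and 6.95 in iNOS-/- M1 macrophages. Tlr6 was at 7.87 and 7.83, then 7.48 and 7.74, then 7.04 and 7.09, and 8.98 and 8.96 in the same groups in the same order. For both genes the unstimulated iNOS-/- arrays were the lowest and the iNOS-/- M1 arrays the highest. Between M1 groups Tlr1 was 1.60 higher in iNOS-/- macrophages (SE 0.25, limma adjusted p = 0.00501) and Tlr6 1.36 higher (SE 0.11, limma adjusted p = 0.000586). Activation raised Tlr1 by 2.37 and Tlr6 by 1.91 in iNOS-/- cells, with changes of -0.24 for each in WT cells that did not pass (limma adjusted p = 0.509 for Tlr1 and 0.157 for Tlr6). Before activation Tlr6 was lower in iNOS-/- cells, with a difference of -0.79 (SE 0.11, limma adjusted p = 0.00542). For Tlr1 that difference was -1.01 (SE 0.25, limma adjusted p = 0.0334), which 8 of 18 alternatives did not call, among them leaving out WT unstimulated replicate 1 or 2, iNOS-/- unstimulated replicate 1, or iNOS-/- M1 replicate 1 or 2. The genes are neighbours on mouse chromosome 5, and their log2 values correlated at r = 0.96 over the 8 arrays, which share 4 groups. That value was not particular to the pair. Cd14, on chromosome 18, correlated at 0.953 with Tlr6 and 0.942 with Tlr1. Among probes detected on all arrays, 97 were above 0.95 with Tlr1 and 206 with Tlr6.

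Tlr2 itself was bright and changed little. Its log2 intensity was 11.11 and 11.19 in WT unstimulated cells, 11.47 and 11.46 in WT M1, 11.15 and 11.28 in iNOS-/- unstimulated and 11.64 and 11.78 in iNOS-/- M1 macrophages. The unstimulated groups overlapped, and the M1 groups did not. The difference between M1 groups was 0.25 (SE 0.10, limma adjusted p = 0.0864), with a 95% interval from 0.0039 to 0.49. The rise of 0.50 in iNOS-/- cells passed (SE 0.10, limma adjusted p = 0.00893) and the 0.31 in WT cells did not (SE 0.10, limma adjusted p = 0.0566). Tlr2 has no settled direction in iNOS-/- cells, since the rise turned to -0.10 after neqc and -0.11 after quantile normalization, and the difference between M1 groups to -0.21 after either.

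Tlr7, a sensor of single-stranded RNA, changed in opposite directions in the genotypes. It was at 9.63 and 9.58 in WT unstimulated cells and 8.66 and 8.51 in WT M1 macrophages. It was at 8.04 and 7.91 in iNOS-/- unstimulated cells and 8.97 and 9.06 in iNOS-/- M1 macrophages. No groups overlapped, and unstimulated WT cells were the highest. Activation lowered Tlr7 in WT cells, with a change of -1.02 (SE 0.10, limma adjusted p = 0.00166), and raised it by 1.04 in iNOS-/- cells (SE 0.10, limma adjusted p = 0.00073). Tlr7 was the 1 probe of the 9 called both ways, a pattern that 7.9% of all tested probes had. Before activation it was lower in iNOS-/- cells, with a difference of -1.63 (SE 0.10, limma adjusted p = 0.000413). Its lead of 0.43 in iNOS-/- M1 over WT M1 macrophages (SE 0.10, limma adjusted p = 0.0189) was not called under 4 of 18 alternatives, and was 0.28 after quantile normalization (limma adjusted p = 0.0828). Leaving out WT M1 replicate 2 or iNOS-/- M1 replicate 2 ended that call too.

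Tlr8, the X-linked neighbour of Tlr7, was lower in iNOS-/- cells with and without activation. It was at 7.05 and 7.07 in WT unstimulated cells and 5.79 and 6.36 in WT M1 macrophages. It was at 4.77 and 4.64 in iNOS-/- unstimulated cells, and at 2.57, not detected, and 3.71 in iNOS-/- M1 macrophages. The 4 groups did not overlap and fell in that order. The genotypes differed by -2.35 before activation (SE 0.40, limma adjusted p = 0.00997) and by -2.93 in M1 macrophages (SE 0.40, limma adjusted p = 0.00296). The M1 difference was called under all 18 alternatives with values from -3.51 to -1.65, the smallest after neqc, and the unstimulated one missed the threshold without iNOS-/- unstimulated replicate 2 (limma adjusted p = 0.0531). Activation changed Tlr8 by -1.56 in iNOS-/- cells (SE 0.40, limma adjusted p = 0.0237) and by -0.98 in WT cells (SE 0.40, limma adjusted p = 0.117). The first of these was not called under 4 of 18 alternatives, among them leaving out iNOS-/- unstimulated replicate 1 or 2, and was -0.70 with a floor of 16.

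Tlr3, the sensor of double-stranded RNA, was near background. It was detected on 1 WT unstimulated array, at a scaled intensity of 8.01, and on 1 iNOS-/- M1 array, at 8.34, and on 0 arrays of the other groups. No comparison of Tlr3 passed the threshold. Apart from leaving out 1 array, 8 alternatives tested Tlr3 between M1 groups. The difference of 2.25 (SE 1.09, limma adjusted p = 0.147) was called under 2 of these 8. It ran from 1.63 to 2.87 with 1 array left out, in the fits that tested the probe. Against WT M1, where Tlr3 was not detected, only a bound of at least 1.06-fold higher can be given.

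**Figure D2:**
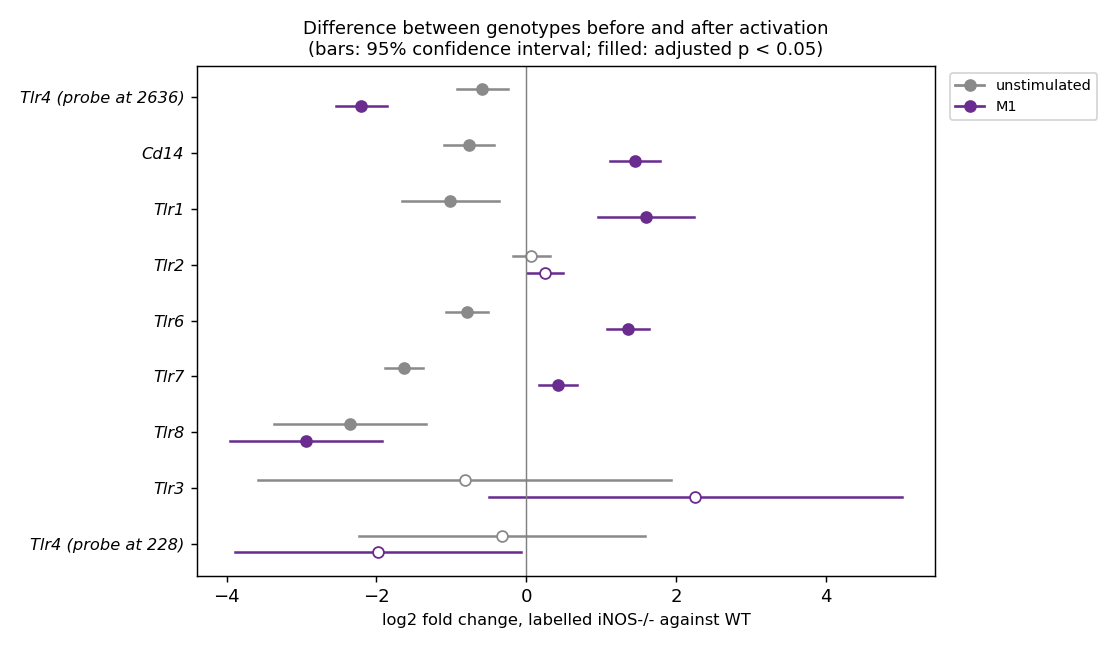
Log2 fold change of iNOS-/- against WT (horizontal axis) for each probe (vertical axis) in unstimulated cells (grey) and M1 macrophages (purple), with 95% confidence intervals and filled points where limma's adjusted p passed 0.05. Cd14, Tlr1, Tlr6 and Tlr7 lie left of 0 before activation and right of it in M1 macrophages, while Tlr4 and Tlr8 lie left in both.

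Set side by side, activation called 7 of the 9 probes in iNOS-/- cells, 5 higher and 2 lower, where 50.3% of all probes were called, 25.2% higher and 25.1% lower. In WT cells it called 1 probe, Tlr7, lower, where 35.1% of all probes were called, 20.8% higher and 14.3% lower. The WT count depended on the setting, from 1 to 5 over the alternatives. The responses themselves were compared as a difference of differences. It was 2.61 for Tlr1, 2.15 for Tlr6, 2.05 for Tlr7, 2.22 for Cd14 and -1.61 for Tlr4 at base 2636, each called by limma and called under all 17 alternatives run for it. These were 5 of 9 probes, 4 with a positive and 1 with a negative difference, where 42% of all probes were called, 19.4% positive and 22.6% negative. For Tlr8 the difference was -0.58 (SE 0.57, limma adjusted p = 0.458), and for Tlr2 0.19 (SE 0.14, limma adjusted p = 0.329), with a sign that turned under neqc and quantile normalization. These comparisons share arrays, so their counts are not independent.

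**Figure D3:**
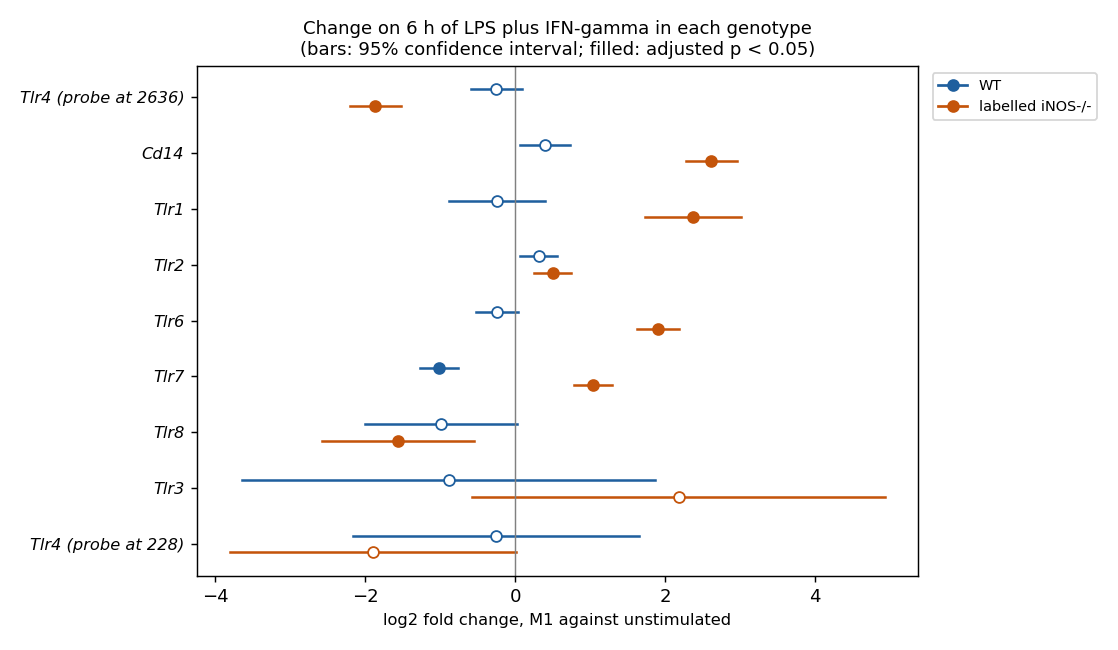
Log2 fold change of M1 against unstimulated cells (horizontal axis) for each probe (vertical axis) in WT (blue) and iNOS-/- cells (orange), with 95% confidence intervals and filled points where limma's adjusted p passed 0.05. Cd14, Tlr1 and Tlr6 rose by 1.91 to 2.62 in iNOS-/- cells, Tlr4 fell there by 1.87, and Tlr7 moved to opposite sides of 0.

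Ordered by level, neighbouring groups were not always apart. For Tlr1 and Tlr6 the order from low to high was iNOS-/- unstimulated, WT M1, WT unstimulated and iNOS-/- M1. The difference between WT groups did not pass the threshold in either, and the WT arrays overlapped for Tlr1 but not for Tlr6. For Tlr7 all neighbouring groups differed (limma adjusted p = 0.0206, 0.0189 and 0.00474 from low to high). For Tlr4 at base 2636 the top 3 groups were, from low to high, iNOS-/- unstimulated, WT M1 and WT unstimulated. Neither difference between neighbours among them passed the threshold, though the arrays did not overlap, and iNOS-/- M1 lay 1.87 below the nearest. Unstimulated iNOS-/- cells and WT M1 macrophages were the closest pair of groups, with 13.6% of all probes called, 3.81% higher and 9.76% lower in the iNOS-/- cells. Of the 9 probes 3 were called there (Tlr6, Tlr7 and Cd14, all lower in iNOS-/- unstimulated cells), a count that ran from 0 to 6 over the alternatives. Between iNOS-/- M1 and WT unstimulated arrays, which differ in genotype and treatment, 7 of the 9 were called, 4 higher and 3 lower, where 55.7% of all probes were called, 28.6% higher and 27.1% lower.

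The rest of the pathway was read from a list of 49 genes, of which 45 were tested. Between M1 groups 18 were higher and 12 lower in iNOS-/- macrophages, 66.7% of those tested, beside the 48.2% of all probes. Each gene was read by its brightest probe, whereas all probes include many dim ones. Without probes of a mean scaled intensity below 15, 73.8% of the 42 genes left and 65.9% of all probes left were called. Before activation 2 were higher and 18 lower, 44.4% of those tested, where 16.7% of all probes were higher and 15.4% lower. Without dim probes 59.5% of the genes were called, 11.9% higher and 47.6% lower. Of all probes left 48% were called, 24.3% higher and 23.7% lower. Activation raised 9 and lowered 13 in WT cells, 48.9% of those tested beside 35.1% of all probes, and without dim probes 54.8% beside 52.3%. It raised 18 and lowered 10 in iNOS-/- cells, 62.2% beside 50.3%, and without dim probes 71.4% beside 66.4%. Nothing particular to the list is read from these shares. The median over the list was -0.09 between M1 groups, against -0.03 for all probes, so the list had no common direction there. It was -0.28 before activation, against 0 for all probes. For activation it was 0.0018 in WT cells and 0.33 in iNOS-/- cells, against 0.09 and 0.0039 for all probes. For the difference of response it was 0.52, against -0.05 for all probes.

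Among other Toll-like receptors Tlr13, an endosomal sensor of bacterial ribosomal RNA, was detected on all arrays. It was at 10.05 and 10.22 in WT unstimulated cells, 9.10 and 8.85 in WT M1, 8.82 and 8.91 in iNOS-/- unstimulated and 7.84 and 7.71 in iNOS-/- M1 macrophages. Activation changed it by -1.16 in WT and -1.09 in iNOS-/- cells, both called (limma adjusted p = 0.00245 and 0.0015), and a second probe of the gene moved the same way. Tlr11 and Tlr12 were not detected on both arrays of any group. Ly96, which encodes Md-2, fell by 0.99 on activation in WT cells and rose by 0.68 in iNOS-/- cells (limma adjusted p = 0.00236 and 0.00437). Ly86, which encodes the related Md-1 of the Cd180 complex, was lower in iNOS-/- M1 than in WT M1 macrophages, with a difference of -0.81 (SE 0.15, limma adjusted p = 0.0084).

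Of 10 tested genes for folding, trafficking and processing of the receptors, 3 were higher and 4 lower in iNOS-/- M1 macrophages, where 22.9% of all probes were higher and 25.3% lower, or 31.9% and 34% without dim probes. Slc15a4, an endolysosomal transporter needed for Tlr7 signalling, was lower, with a difference of -1.53 (SE 0.12, limma adjusted p = 0.000487). Ctss, an endosomal protease, was 0.69 higher (SE 0.15, limma adjusted p = 0.0138), which was not called after neqc or quantile normalization, nor without WT M1 replicate 1 or in a fit of the M1 arrays alone. Before activation 7 of these genes were lower in iNOS-/- cells and 0 were higher, where 15.4% of all probes were lower and 16.7% higher, or 23.7% and 24.3% without dim probes.

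All 5 adaptors were tested, and 3 were higher and 1 lower in iNOS-/- M1 macrophages, a comparison that called 48.2% of all probes, or 65.9% without dim ones. Myd88, shared by most of the receptors, was 0.80 higher (SE 0.10, limma adjusted p = 0.00188), and Ticam2, which links Tlr4 to Trif, 0.64 higher (SE 0.09, limma adjusted p = 0.00355). Tirap, which brings Myd88 to Tlr2 and Tlr4, was lower, with a difference of -0.59 (SE 0.12, limma adjusted p = 0.0108). Ticam2 responded oppositely in the genotypes, with -0.53 in WT cells (limma adjusted p = 0.0102) and 0.90 in iNOS-/- cells (limma adjusted p = 0.000897), the first of which missed the threshold without WT unstimulated replicate 2.

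Kinases and ubiquitin enzymes numbered 17, with 8 higher and 4 lower in iNOS-/- M1 macrophages, where 22.9% of all probes were higher and 25.3% lower. Without dim probes 13 of the 17 were called, 76.5%, with 9 higher and 4 lower. Of all probes left 65.9% were called, 31.9% higher and 34% lower. Peli1, an E3 ubiquitin ligase, was 1.92 higher (SE 0.11, limma adjusted p = 0.000273) and rose by 3.04 on activation in iNOS-/- cells against 0.78 in WT cells. Irak2 was 0.85 higher (SE 0.16, limma adjusted p = 0.00958) and Tbk1, the kinase that activates Irf3, 0.79 higher (SE 0.09, limma adjusted p = 0.00135). Inhibitors split, with 3 of 7 higher and 1 lower, against the same 48.2% of all probes. Tnfaip3, which encodes the deubiquitinase A20, was 1.80 higher (SE 0.09, limma adjusted p = 0.000213), and Irak3 1.16 higher (SE 0.11, limma adjusted p = 0.000878). Sigirr, an inhibitory receptor of the IL-1 receptor family, was detected on both arrays of the other groups and on neither iNOS-/- M1 array, at least 3.69-fold lower than in WT M1 macrophages (limma adjusted p = 0.000473).

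**Figure D4:**
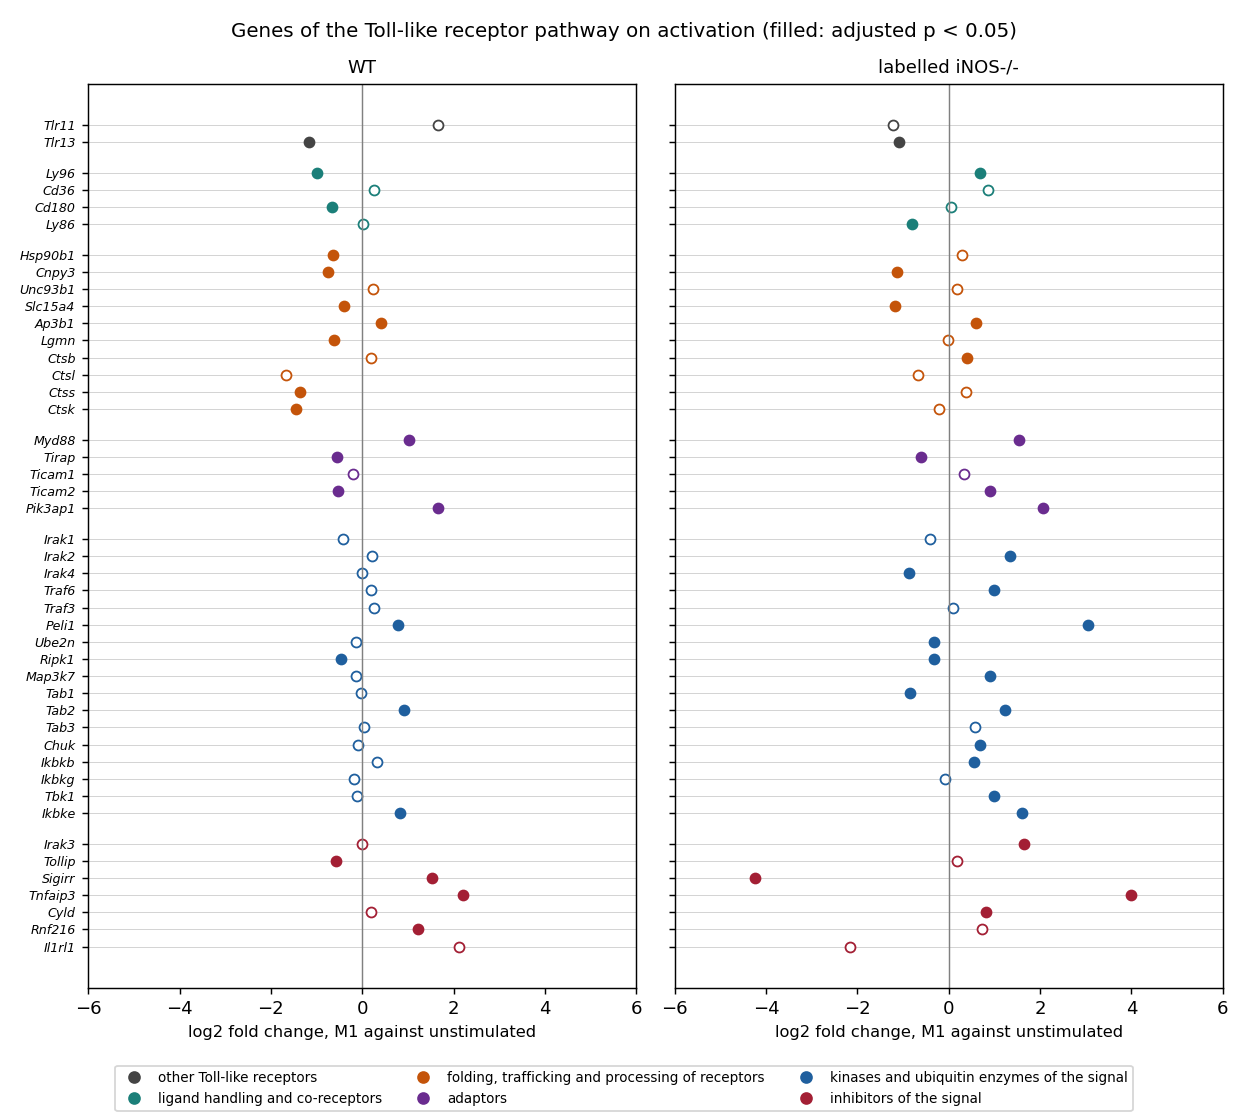
Log2 fold change of M1 against unstimulated cells (horizontal axes) in WT (left) and iNOS-/- cells (right) for the 45 tested genes of the pathway list, grouped and coloured by role, filled where limma's adjusted p passed 0.05. Activation raised 9 and lowered 13 genes in WT cells, and raised 18 and lowered 10 in iNOS-/- cells.

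Markers of other cell types moved with the groups, and bone marrow grown with GM-CSF is known to give several kinds of myeloid cell. The summed scaled intensity of 10 dendritic cell markers ran from 848.3 to 849.4 in WT unstimulated cells, 16770 to 17320 in WT M1, 13850 to 14700 in iNOS-/- unstimulated and 36300 to 37970 in iNOS-/- M1 macrophages. That of 8 granulocyte markers with a row ran from 1128 to 1149, 1400 to 1506, 1682 to 1748 and 3866 to 3991 in the same order, and that of 6 markers of dividing cells from 508.1 to 577, 1652 to 1777, 1899 to 1919 and 664.1 to 675. Plasmacytoid dendritic cell markers ran from 636.5 to 680.2, 1032 to 1073, 666.3 to 847.9 and 2412 to 2494, and none of the 4 B cell markers with a row passed the filter. Tcf4 and Bst2, with means of 1544 and 899.6 in iNOS-/- M1 macrophages, carried that last sum. Siglech, a defining marker of these cells, was lower in iNOS-/- M1 than in WT M1 macrophages and not detected on either iNOS-/- M1 array, and Ly6d and Ccr9 were not detected on any array. S100a8 and S100a9, with means of 2892 and 727.9, made up most of the granulocyte sum in iNOS-/- M1 macrophages. Of the 7 granulocyte markers tested, 3 (S100a8, S100a9 and Ltf) were higher there than in WT M1 macrophages, 0 were lower and 4 were not called. Of all probes, 22.9% were higher and 25.3% lower between these groups, or 31.9% and 34% without dim probes. Against WT unstimulated cells, which differ from iNOS-/- M1 macrophages in genotype and treatment, 5 markers were higher and 1 (Mmp8) lower. That comparison called 28.6% of all probes higher and 27.1% lower. Mpo was not detected on any array. Most of the dendritic sum in iNOS-/- M1 macrophages was Ccl17 and Il4i1, with means of 19320 and 13820. Itgax had a mean of 186.8 there against 253.2 in WT M1 macrophages, and Cd209a, at 31.69 in WT M1, was not detected on either iNOS-/- M1 array. Of the dendritic list, Flt3 and Xcr1 did not pass the detection filter. Of the 8 tested 4 were higher and 1 lower in iNOS-/- M1 than in WT M1 macrophages. That comparison called 22.9% of all probes higher and 25.3% lower, or 31.9% and 34% without dim probes. The part of these cell types in the changes of the receptors was not tested, and in bulk RNA fewer cells of a type and less RNA per cell cannot be told apart.

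The probes whose profile was most like each member are a description only, over the same 8 arrays and 9686 other probes detected on all of them. Gatad1 (r = 0.992) and Psmb6 (0.990) were nearest to Tlr1, Edem2 (0.996) and Cugbp1 (0.995) to Tlr6, and Slamf7 (0.996) and Nfe2l2 (0.995) to Cd14. Rreb1 and Acat2 (0.994 each) were nearest to Tlr4, Foxq1 (0.994) and the file's LOC100045617 (0.995) to Tlr7, and Wars (0.987) and Acadl (0.985) to Tlr2. With 4 groups behind 8 arrays such values are easily reached: 463 probes were above 0.95 with Tlr4 and 54 with Tlr7.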

How the data were processed

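Macrophage RNA samples, 8 in all, were hybridised to Illumina bead arrays, named MouseRef-8 in the series design and MouseWG-8 in the methods. The authors deposited an intensity per probe, averaged over beads and not normalized between arrays, with a detection p-value. The deposited intensities of undetected probes lie around 0, so no background was subtracted. The methods name background subtraction, rank-invariant normalization, negative values set to 1, log2 and limma. GenomeStudio and limma 3.14.4 are named in the submitters' processing notes. The genome build of the probes is not given in the sources used here.

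A robust line through the origin over rank-invariant probes (MASS 7.3.60.0.1) brought every array to the scale of their mean, with factors from 0.813 to 1.30. After a floor of 1 and log2, the fit used probes that 2 or more arrays detected (detection p-value under 0.05). A model of the 4 groups was fitted with limma 3.58.1 (R 4.3.3), with Benjamini-Hochberg adjustment over 13868 probes and calls at an adjusted p under 0.05. A probe detected on neither array of a group is given as a bound, in which each dim array counts at no less than its lowest detected value. The number of arrays limits the precision. All value columns were matched to a sample, 0 left over.

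The fit was tested on simulated data. Simulated calls on unchanged probes came almost only from dim probes, many of them at the floor on both arrays of a group. They exceeded the nominal rate there, while brighter simulated probes kept to it. Only a small share of simulated probes was changed, in iNOS-/- M1 arrays alone, whereas 48.2% of tested probes were called between the real M1 groups. The simulation therefore cannot show that brighter probes keep to the nominal rate in these data. No Toll-like receptor probe below a mean scaled intensity of 15 was called. Over the real data such dim probes gave 11% of the calls between M1 groups. The fit was kept, and leaving out dim probes was added as an alternative after seeing the data. Others were neqc, quantile normalization, an intercept, a floor of 16, other filters, fewer arrays, an intensity trend, a replicate block and leaving out each array.

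The members, gene lists and named genes were chosen with earlier results of these data known. Named genes are the members, pathway list members by their brightest probe, Nos2, and the 2 probes most correlated with each member. Replicate numbers did not pair arrays (correlations of deviations from -0.0375 to 0.0247). Sequences are from the deposited table and RefSeq. Of the members with a probe, Tlr4, Tlr7 and Cd14 had no promoter entry used here. One promoter motif is not reported here.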

Additional observations from a re-analysis of the deposited data

Results flagged for a closer look

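For 5 probes the response to LPS plus IFN-γ differed between genotypes by a test of the difference itself (limma, adjusted over all 13868 probes). As the change in iNOS-/- cells minus that in WT cells, the log2 difference was 2.61 for Tlr1 (SE 0.36, limma adjusted p = 0.004), 2.15 for Tlr6 (SE 0.16, limma adjusted p = 0.000664) and 2.22 for Cd14 (SE 0.19, limma adjusted p = 0.000996). It was 2.05 for Tlr7 (SE 0.14, limma adjusted p = 0.000577) and -1.61 for Tlr4 at base 2636 (SE 0.19, limma adjusted p = 0.00248). The same test called 42% of all probes.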

How the results depend on the processing

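With 2 arrays a group, Tlr1, Tlr4 at base 2636, Tlr6, Tlr8 and Cd14 kept their direction and call between M1 groups under every alternative, as did Tlr6 and Tlr7 between unstimulated groups and the 5 called differences of response. Over the 9 probes and 7 comparisons, 975 recomputed values kept direction and call, 50 gained a call, 39 lost one and 19 reversed. For the pathway genes named, 725 kept both, 2 gained, 25 lost and 4 reversed. The cause was not tested for any of these.

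Tlr2 reversed to -0.21 between M1 groups after neqc and after quantile normalization, to -0.10 and -0.11 for activation in iNOS-/- cells, and to -0.46 after either for the difference of response, called there (limma adjusted p = 0.0201 and 0.0444). Ctss reversed to -0.15 and -0.16 for activation in iNOS-/- cells. The Tlr8 difference of response became 0.25 after neqc, 0.16 with an intercept and 0.28 with a floor of 16. The dim Tlr4 probe at base 228 became 0.52 for that difference with an intercept, and between iNOS-/- unstimulated and WT M1 arrays 0.06 after neqc, 0.21 after quantile normalization and 0.14 with an intercept. Leaving out 1 array, that probe ran from -0.37 to 0.22 there and from -0.58 to 0.07 for activation in WT cells. Tlr3 ran from -0.14 to 1.56 between iNOS-/- M1 and WT unstimulated arrays and from -0.62 to 0.74 between iNOS-/- unstimulated and WT M1 arrays, and Ly86 from -0.05 to 0.08 for activation in WT cells.

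The count of 1 probe called for activation in WT cells became 5 after neqc, 2 after quantile normalization, 4 with an intercept, 3 with a floor of 16, 3 with the stricter filter, 3 without dim probes and 4 with an intensity trend. The count of 3 between iNOS-/- unstimulated and WT M1 arrays became 5 after neqc, 1 with only those arrays and 6 with a trend. Leaving out 1 array gave 5 to 7 probes between M1 groups, 3 to 6 between unstimulated groups, 1 to 2 for activation in WT cells, 6 to 8 in iNOS-/- cells, 5 to 6 for the difference of response, 0 to 3 between iNOS-/- unstimulated and WT M1 and 7 to 8 between iNOS-/- M1 and WT unstimulated arrays. The replicate block moved no count by over 1.5 times. It ended the calls of Tlr1 between unstimulated groups (limma adjusted p = 0.0634) and Tlr6 between iNOS-/- unstimulated and WT M1 arrays (0.0637), and called the dim Tlr4 probe between iNOS-/- M1 and WT unstimulated arrays (0.0487). Slc15a4 for activation in WT cells also lost its call (0.05002), and the block changed no other call of the named genes.

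The share of calls that were higher moved from 59.3% to 44.4% (neqc), 47.4% (quantile) and 49% (intercept) for activation in WT cells, and from 47.5% to 58.4% between M1 groups and 46.1% to 59.7% for the difference of response with an intercept. The intercept shifted the median of all probes to 0.24 between M1 groups and 0.33 for the difference of response. Probes near background (Tlr3, Tlr4 at base 228, Tlr8 in iNOS-/- M1 arrays) limit what can be measured.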
